A study of Mus musculus with 32 samples.

Results

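Solute carriers (the SLC superfamily) are membrane proteins that move amino acids, sugars, ions, vitamins, nucleotides and metal ions across the plasma membrane and the membranes of organelles. Members were taken by symbol, as array genes named Slc, a family number and a letter, with 1 glucose carrier gene left out. The array carried 325 such genes on 473 probes. A gene was a member where a probe was detected above the negative controls (detection p under 0.05) on at least 3 of 32 arrays, and its brightest such probe stood for it. That left 188 members on 246 probes, which are 1.72% of the 10903 genes tested. Of the 137 genes left out as dim, 95 were detected on 0 arrays. At the edge of the rule, 5 members were detected on exactly 3 arrays and 13 genes outside it on exactly 2. The members fall into 46 families, and 4 of them are named after a carrier without being one: the scaffolds Slc9a3r1 and Slc9a3r2, and Slc7a6os and Slc4a1ap.

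The samples were immortalized mouse embryonic fibroblasts, connective tissue cells grown from embryos. KO cells had Spry1, Spry2 and Spry4 deleted on both alleles (Spry124-/-). WT cells carried the same genes floxed on both alleles but intact (Spry124fl/fl). Sprouty proteins restrain signalling from receptor tyrosine kinases to ERK. All cells, KO and WT, were starved of serum in DMEM with albumin and antibiotics and harvested either before FGF (0 min) or 15, 60, 120 and 240 min into FGF treatment. Each genotype had 4 arrays at baseline and 3 at every later time. The design asked what the loss of Sprouty feedback does to gene expression. It calls the replicates biological, but the labels do not give how many lines or clones stand behind a genotype, so genotype and cell line cannot be told apart. There were no arrays of later times without FGF, so FGF and time in starvation cannot be told apart either. Which FGF was given, and its dose, are also not given.

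Each array detected 11319 to 12470 of 25697 probes. The immediate early genes Egr1, Egr2, Fos and Ier3 were all called higher at 60 min in KO and in WT. The probe for Spry4 was detected at 0 min on 1 of 4 KO and 4 of 4 WT arrays, but at 120 min on 3 of 3 KO and 3 of 3 WT arrays. Whether it lies in the deleted stretch is not given. The probes for Spry1 and Spry2 were detected on at most 1 array of any group and so check little. Of 9 fibroblast markers on the array, 7 were detected on all 32 arrays and Fap on 0. Their summed intensity was 12600 to 15800 in KO and 8910 to 11500 in WT. Of the markers of leukocytes, epithelium, endothelium, muscle, neural cells and fat cells, none was detected on all arrays, and Ptprc, Itgam, Krt18, Krt5, Cdh5, Myod1, Gfap, Plin1 and Fabp4 were detected on 0. Epithelial markers summed to 95.5 to 120 in KO and 143 to 248 in WT. Their part in the differences below was not tested.

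Values below are log2 intensities after background correction and quantile normalization, and differences are on the same log2 scale. The level of one probe cannot be set against that of another. A gene was called where the adjusted p of limma's moderated test, with Benjamini-Hochberg adjustment over all 10903 genes, was under 0.05. Errors beside a difference are standard errors of that fit, and errors beside a mean are SDs over its 4 arrays at 0 min or 3 at later times. RNA was taken from whole cultures, so fewer cells of a type and less RNA per cell cannot be told apart.

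As background, many carriers work in functional pairs. The light chain Slc7a5 joins the heavy chain Slc3a2 to exchange large neutral amino acids such as leucine, and Slc7a11 joins the same heavy chain to bring in cystine. ATF4, the transcription factor of the amino acid response, is known to act through a composite C/EBP-ATF site on genes of amino acid synthesis and uptake. CREB binds the cyclic AMP response element. Letters of both kinds of site were searched on both strands in RefSeq promoters (GRCm38.p6, 250 bases before to 50 after the gene's start), which were found for 152 members. The first of these is shown because its gene gave the largest early response below. The second is from the only other member with the same motif. The last 2 are from amino acid carriers with the composite site whose responses are given below. Slc7a7, also an amino acid carrier with that site, is not printed. Capitals mark the motif.
Slc25a25, chr2:32424017-32424316, minus strand: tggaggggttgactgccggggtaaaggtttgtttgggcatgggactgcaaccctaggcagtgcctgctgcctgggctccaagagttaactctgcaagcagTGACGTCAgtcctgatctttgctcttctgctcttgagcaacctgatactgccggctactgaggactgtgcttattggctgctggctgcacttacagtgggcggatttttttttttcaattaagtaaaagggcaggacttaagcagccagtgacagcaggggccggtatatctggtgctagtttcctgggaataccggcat
Slc25a36, chr9:97111165-97111232, minus strand: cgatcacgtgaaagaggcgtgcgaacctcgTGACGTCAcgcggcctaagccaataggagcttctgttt
Slc1a4, chr11:20332680-20332747, minus strand: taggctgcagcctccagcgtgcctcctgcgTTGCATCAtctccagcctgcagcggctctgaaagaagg
Slc7a11, chr3:50443623-50443709, minus strand: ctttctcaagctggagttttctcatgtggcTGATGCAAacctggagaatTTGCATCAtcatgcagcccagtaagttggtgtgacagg

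The cyclic AMP response element TGACGTCA, which reads the same on both strands, begins 150 bases before the start of Slc25a25 and 161 before that of Slc25a36. It lay in 2 of 206 promoters of members (0.971%) and in 1.79% of all 32851 promoters of the same length. The composite motif TGATGNAA, or its reverse complement, lay in promoters of 7 members (3.88% of member promoters, against 3.97% of all). These were Slc1a4, Slc7a11, Slc7a7, Slc17a1, Slc23a3, Slc49a4 and Slc50a1. The E-box CACGTG was found in 13.1% of member promoters and 7.15% of all, the AP-1 motif TGANTCA in 5.34% and 7.81%, and the EGR motif GCGTGGGCG in 3.88% and 0.612%. Some members have several overlapping promoters in the table, so promoters are not independent. A match is a description of the letters and no evidence of binding.

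Before FGF, KO fibroblasts differed from WT fibroblasts in many carriers and in both directions. At 0 min, 50 members were called higher in KO and 41 lower. Of all genes tested, 22.2% were called higher and 23.7% lower. The median difference was 0.08 over the members and -0.02 over all genes. The median size of a difference, without its sign, was 0.25 over the members and 0.24 over all genes. The members' differences ran between -2.34 and 2.09. The lower end is the fitted value of Slc14a1, which no KO array detected above background at 0 min.

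**Figure D1:**
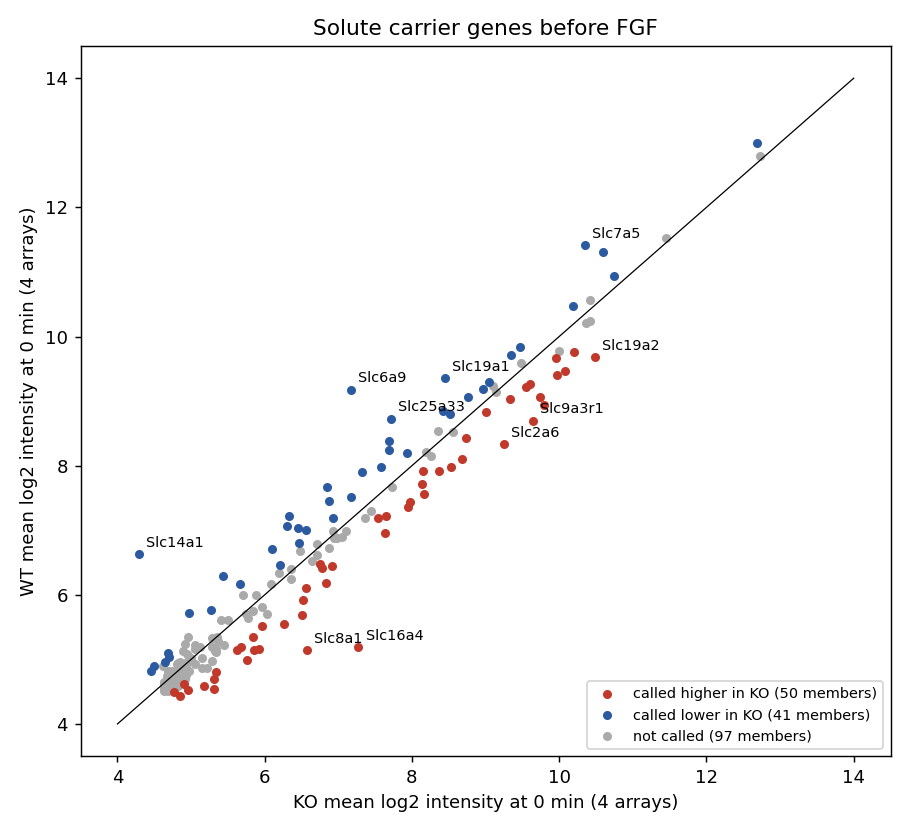
Mean log2 intensity at 0 min of each of the 188 members in KO (x axis, 4 arrays) and WT (y axis, 4 arrays), with the line of equal levels. The 50 members called higher in KO lie below the line and the 41 called lower lie above it, with Slc16a4 and Slc14a1 farthest out.

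The largest falls in KO were those of Slc14a1, Slc6a9 and Slc7a5. Slc14a1, a urea transporter, had 4.27, 4.32, 4.29 and 4.27 in KO, against 6.44, 6.65, 6.58 and 6.86 in WT. No KO array detected it above background, and in KO before FGF it was lower by at least 3.42-fold (limma adjusted p = 5.67e-18). Its other probes gave differences of -1.28 and -1.19. Slc6a9, the glycine transporter GlyT1, had 7.11, 7.21, 7.27 and 7.11 in KO, against 9.18, 9.36, 9.09 and 9.09 in WT. Its difference was -2.003 ± 0.08 (limma adjusted p = 4.15e-18), and the arrays of the genotypes stood far apart. Slc7a5 had 10.27, 10.48, 10.46 and 10.19 in KO, against 11.47, 11.51, 11.24 and 11.46 in WT. The difference was -1.07 ± 0.10 (limma adjusted p = 6.61e-10), with no overlap.

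Slc1a4, an exchanger of alanine, serine and cysteine, was also lower in KO, with 7.70, 7.66, 7.84 and 7.56 in KO and 8.29, 8.48, 8.33 and 8.40 in WT. The difference was -0.69 ± 0.08 (limma adjusted p = 5.15e-08). Slc3a2, the heavy chain partner of Slc7a5, was not called at 0 min, where it had 6.54, 6.41, 6.37 and 6.62 in KO and 6.68, 6.45, 6.71 and 6.90 in WT. It was called lower in KO at 60 min by -0.48 ± 0.16 and at 120 min by -0.61 ± 0.16 (limma adjusted p = 0.0164 and 0.00255). Slc7a11 was not called at 0 min, when 1 of 4 KO and 1 of 4 WT arrays detected it.

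Transport classes are set by family number. The amino acid class of 33 members thus also holds Slc6a4, which carries serotonin, and Slc6a8, which carries creatine. In it, 5 members were called higher and 5 lower at 0 min. Among those higher in KO were Slc7a4 by 0.71 ± 0.11 and Slc6a15, a transporter of branched-chain amino acids and proline. Slc6a15 was detected on 0 of 4 WT arrays at 0 min, and was at least 1.16-fold higher in KO. Beside these, 18 of 20 genes of the ATF4 amino acid response could be tested, a list that holds no solute carriers. At 0 min, 2 of them were higher in KO and 10 lower, with a median of -0.43. The asparagine synthetase gene Asns was lower by -1.30 ± 0.06, the serine hydroxymethyltransferase gene Shmt2 by -1.54 ± 0.09 and the regulator Ddit3 by -1.34 ± 0.09. Vldlr and Cebpb were higher, by 1.47 ± 0.12 and 0.82 ± 0.08, and Atf4 itself was not called, with a difference of 0.07 ± 0.09. Of 11 tested genes of amino acid sensing, 3 were higher and 3 lower.

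Carriers of sodium, calcium and phosphate were called in different directions. Slc8a1, which exchanges calcium for sodium at the plasma membrane, had 6.33, 6.58, 6.83 and 6.54 in KO, against 5.24, 5.27, 4.99 and 5.08 in WT. It was higher in KO by 1.43 ± 0.12 (limma adjusted p = 6.24e-11), with every KO array above every WT array. Both sodium-phosphate carriers among the members, Slc20a1 and Slc20a2, were lower in KO. Slc20a1 had 7.03, 6.65, 6.62 and 7.11 in KO, against 7.64, 7.79, 7.57 and 7.68 in WT, and differed by -0.82 ± 0.11. Slc20a2 differed by -0.38 ± 0.08, with 9.46 ± 0.10 in KO and 9.84 ± 0.06 in WT (SD, n = 4 each). Slc4a8, a sodium-driven exchanger of chloride and bicarbonate, was lower by -0.86 ± 0.12, and Slc12a9 of the cation-chloride family by -0.90 ± 0.09. The chloride-bicarbonate exchanger Slc4a2 and the sodium-proton exchanger Slc9a8 were higher, by 0.33 ± 0.08 and 0.71 ± 0.19. Other kept probes gave smaller differences, 0.01 and 0.43 for Slc9a8, -0.18 for Slc4a8, and -0.72 and -0.21 for Slc12a9. Outside the superfamily, both tested subunits of the sodium pump were higher in KO at 0 min, Atp1b1 by 1.54 ± 0.09 and Atp1b3 by 0.22 ± 0.06.

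Among carriers of fuels, Slc16a4, which belongs to the monocarboxylate transporter family, showed the largest difference upward. It had 7.19, 7.30, 7.23 and 7.37 in KO, against 4.94, 4.78, 5.47 and 5.54 in WT, where 2 of 4 arrays detected it. The difference was 2.09 ± 0.16 (limma adjusted p = 6.6e-12). Slc2a6, of the glucose transporter family, had 9.24, 9.21, 9.24 and 9.30 in KO and 8.37, 8.28, 8.35 and 8.32 in WT. It was higher in KO by 0.92 ± 0.06 (limma adjusted p = 1.98e-13), a smaller difference than that of Slc16a4 with little spread among arrays.

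Slc2a10, of the same family as Slc2a6, had 6.70, 6.62, 6.32 and 6.36 in KO, against 5.83, 5.80, 5.89 and 5.25 in WT, and was higher by 0.81 ± 0.13. Its second probe gave 0.25. Slc2a9, a urate carrier, was detected on 0 of 4 WT arrays at 0 min, and was at least 1.28-fold higher in KO. Of the 10 members of the sugar families, 4 were called higher and 3 lower. The lower ones were Slc45a4 and, placed here by family number alone, Slc5a6, which takes up biotin and pantothenate, and Slc5a8, which takes up lactate and short-chain fatty acids. Slc5a6 differed by -0.55 ± 0.08, Slc5a8 by -0.34 ± 0.09 and Slc45a4 by -0.26 ± 0.09.

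Of the 29 mitochondrial carriers (family Slc25), which pass metabolites through the inner membrane, 9 were called higher and 7 lower. Slc25a1 exports citrate from the matrix and had 9.85, 9.71, 9.68 and 9.93 in KO, against 8.98, 8.82, 8.99 and 8.97 in WT. It was higher in KO by 0.85 ± 0.08 (limma adjusted p = 3.35e-10). Slc25a20, which brings in acylcarnitines for fatty acid oxidation, was higher by 0.61 ± 0.08. The mitochondrial glycine carrier Slc25a38 was higher by 0.56 ± 0.07. Slc25a33, which carries pyrimidine nucleotides, had 7.73, 7.74, 7.57 and 7.80 in KO, against 8.80, 8.52, 8.89 and 8.70 in WT. It was lower by -1.02 ± 0.10 (limma adjusted p = 1.09e-09). Slc25a15, the ornithine carrier of the urea cycle, was lower by -0.77 ± 0.11.

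Vitamin and choline carriers held members called in both directions. Slc19a1, the reduced folate carrier, had 8.32, 8.44, 8.38 and 8.63 in KO, against 9.36, 9.30, 9.41 and 9.33 in WT, and was lower by -0.91 ± 0.09 (limma adjusted p = 1.26e-09). Slc19a2, a thiamine carrier of the same family, was higher, with 10.34, 10.54, 10.48 and 10.57 in KO and 9.71, 9.68, 9.61 and 9.71 in WT (0.81 ± 0.07, limma adjusted p = 1.76e-10). These paralogs thus differed from WT in opposite directions, with no overlap of arrays in either. The choline carrier Slc44a1 was higher by 0.78 ± 0.13, with 2 of 4 WT arrays detecting it, and the riboflavin carrier Slc52a3 by 0.76 ± 0.13. The second probe of Slc44a1 gave 0.28. In this class of 11, 5 were called higher and 1 lower.

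Of 8 members of the families for iron, heme, copper, magnesium and manganese, 5 were called higher and 1 lower, with a median of 0.45. Slc48a1, a heme carrier, was higher by 0.67 ± 0.06, Slc41a3, of a magnesium family, by 0.61 ± 0.11, and the divalent metal importer Slc11a2 by 0.46 ± 0.12. The copper importer Slc31a1 was the lower one, by -0.41 ± 0.09. Of 16 zinc carriers, 2 were called higher and 6 lower, although their median was 0.01. The higher ones were Slc30a7 and Slc39a13, by 0.58 ± 0.09 and 0.55 ± 0.07. Slc30a4 and Slc30a6, of the same exporter family as Slc30a7, were lower, by -0.57 ± 0.14 and -0.42 ± 0.09. No test was made of whether these metal classes differ.

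Golgi and nucleotide sugar carriers had 5 members called higher and 7 lower of 23. The UDP-galactose carrier Slc35a2 was higher by 0.67 ± 0.09, and Slc35b1, which exchanges ATP and ADP across the endoplasmic reticulum, lower by -0.71 ± 0.10. Of 11 organic ion carriers, 2 were higher and 1 lower. Slc22a23 was detected on 0 of 4 WT arrays at 0 min and was at least 1.28-fold higher in KO. Slc22a18 was lower by -0.74 ± 0.15, but its second probe gave 0.14. Of 23 called members with several kept probes, 2 had a probe of the other sign. The nucleoside carrier Slc29a1 was higher by 0.44 ± 0.10. Slc9a3r1, a scaffold that ties sodium-proton exchangers to the actin cortex, had 9.69, 9.53, 9.60 and 9.73 in KO and 8.71, 8.68, 8.66 and 8.73 in WT, and was higher by 0.94 ± 0.07. Of 21 tested ABC transporters, pumps driven by ATP, 4 were higher and 2 lower.

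**Figure D2:**
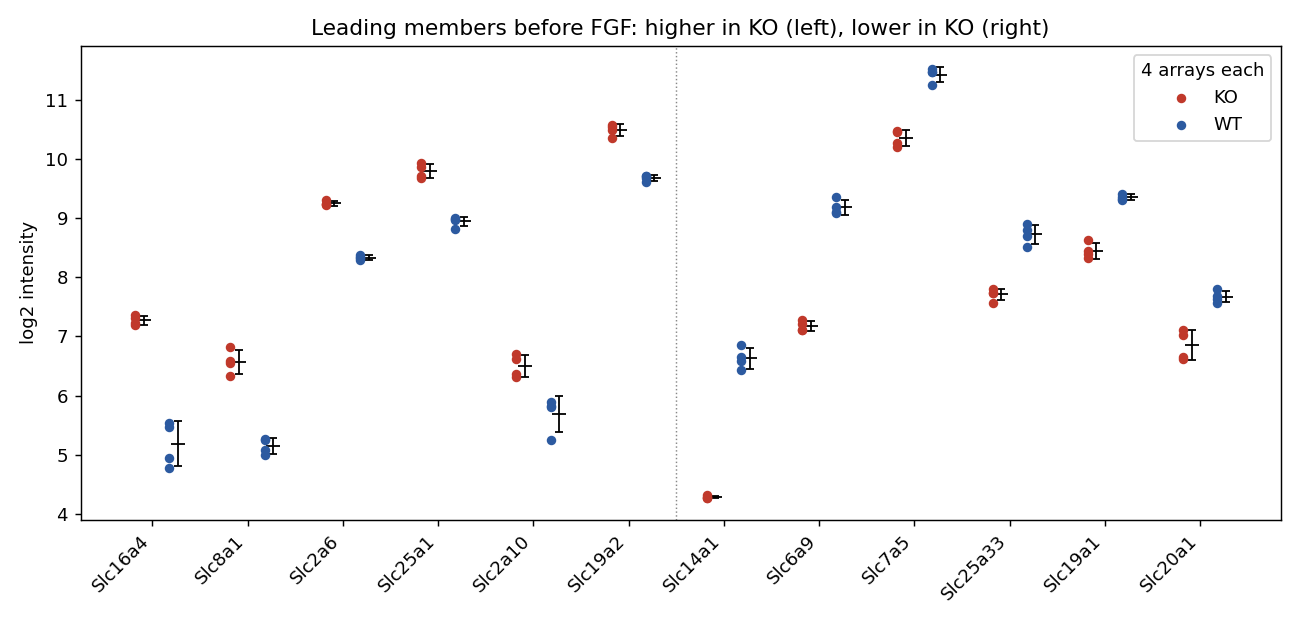
Log2 intensity at 0 min on each array (points, 4 KO left and 4 WT right for each gene) with the mean and SD (black) for 6 members higher in KO and 6 lower in KO. These 12 members were picked from the largest called differences on the same arrays, and in each the arrays of KO and WT did not overlap. Of all 188 members, 77 had no overlap at 0 min, a count not made over all genes. Levels of different genes cannot be set against each other.

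**Figure D3:**
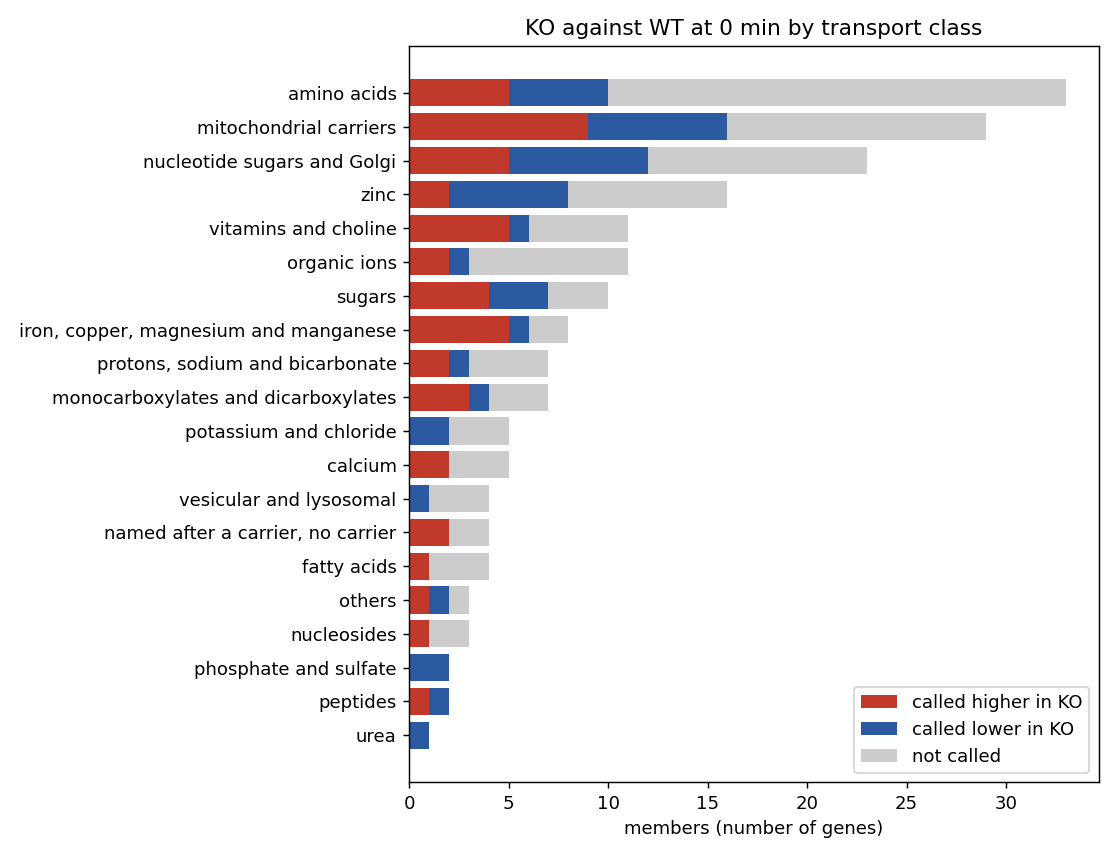
Number of members in each transport class (bars) called higher in KO, called lower in KO or not called at 0 min. The amino acid class had 5 higher and 5 lower of 33, mitochondrial carriers 9 and 7 of 29, and zinc carriers 2 and 6 of 16.

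Carriers were called in similar numbers after FGF. At 15 min, 39 members were called higher in KO and 33 lower, against 19.1% and 20.8% of all genes. At 60 min, the counts were 43 and 33 (21% of all genes called higher and 21% called lower). At 120 min, they were 41 and 38 (21.2% and 22.6% of all genes), and at 240 min 51 and 32 (21.9% and 22%). At all 5 times, 28 members were called higher in KO and 20 lower, against 11.5% and 10.1% of all genes. Slc16a4 was higher by 1.79 to 2.19 over the 5 times and Slc8a1 by 1.202 to 1.51. The sizes of the lower level in KO over the 5 times were 1.86 to 2.35 for Slc6a9, 0.69 to 1.25 for Slc7a5 and 0.87 to 1.27 for Slc19a1. Slc25a25, Slc25a1, Slc48a1, Slc35a2 and Slc44a1 were among the 28, and Slc1a4, Slc20a2, Slc25a15, Slc35b1 and Slc5a6 among the 20. Arrays scaled to the median of all probes gave 58 higher and 24 lower at 0 min. At 120 min, that scaling gave 27 higher and 49 lower. The balance of directions among the members thus depends on the scaling. Shares of all genes under that scaling are not given here, so a shift particular to the members was not tested.

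There were 3 members called in opposite directions at different times, a count that was not made over all genes. Slc66a2 was lower in KO by -0.22 ± 0.07 at 0 min and higher by 0.61 ± 0.08 at 240 min. Its call at 0 min was lost with arrays scaled to the median of all probes (limma adjusted p = 0.376). Slc16a10 carries aromatic amino acids. It differed by -0.32 ± 0.12 at 15 min and 0.60 ± 0.12 at 240 min. Slc6a6, the taurine carrier, differed by -0.35 ± 0.12 at 120 min and 0.44 ± 0.12 at 240 min.

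FGF treatment was followed by few calls in the first 15 min. In KO, 1 member was called higher than at 0 min and 1 lower (0.394% and 0.422% of all genes), and in WT 3 and 1 (1.14% and 1.16%). Slc2a6 was higher at 15 min in WT by 0.37 ± 0.06 (limma adjusted p = 0.001), with 8.70, 8.73 and 8.65 at 15 min and 8.37, 8.28, 8.35 and 8.32 at 0 min. In KO, Slc5a8 was higher by 0.46 ± 0.10 and Slc25a28, a mitochondrial iron carrier, lower by -0.37 ± 0.08. Each of these calls was lost in 4 of 7 fits with 1 array left out. The highest limma adjusted p of these fits was 0.104 for Slc5a8, without KO replicate C of 15 min. For Slc25a28 it was 0.196, without KO replicate A of 15 min. Slc5a8 was also lost under 2 of 9 other settings and Slc25a28 under 1 of 9.

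At 60 min, Slc25a25 showed the largest change in both genotypes. It encodes a carrier of ATP-magnesium and phosphate that is gated by calcium, and its promoter carries the cyclic AMP response element printed above. In KO it had 8.14, 8.08 and 8.52 at 60 min, against 6.91, 6.81, 6.86 and 6.73 at 0 min. WT arrays gave 7.46, 7.27 and 7.33 at 60 min, against 5.97, 6.42, 6.14 and 6.18 at 0 min. The rise was 1.42 ± 0.12 in KO and 1.18 ± 0.12 in WT (limma adjusted p = 2.09e-09 and 6.53e-08), and no array at 60 min overlapped those at 0 min. In KO it was still called higher at 120 min by 0.72 ± 0.12 and at 240 min by 0.47 ± 0.12. The WT differences at those times were 0.15 ± 0.12 and 0.25 ± 0.12 and were not called, and the KO response minus the WT response was 0.56 ± 0.17 at 120 min and 0.21 ± 0.17 at 240 min, also not called.

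In all, 4 members were called higher and 7 lower at 60 min in KO (3.19% and 2.47% of all genes), and 3 higher and 6 lower in WT (3.15% and 2.1%). The 4 called in both genotypes had the same direction in both. These were Slc25a25 and, lower in both, Slc5a8, Slc25a38 and Slc30a1. Calls shared by both genotypes were not counted over all genes, here or at later times. Slc5a8 had 5.58, 5.87 and 5.80 at 60 min and 6.55, 6.44, 6.54 and 6.31 at 0 min in KO. The WT arrays had 6.02, 5.84 and 6.31 at 60 min and 6.78, 6.82, 6.75 and 6.84 at 0 min. It fell by 0.71 on the log2 scale in KO and by 0.74 in WT (limma adjusted p = 2.15e-05 and 6.64e-06).

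Slc30a1, which exports zinc from the cell, was lower at 60 min and higher at 120 min. It averaged 6.51 ± 0.13 at 60 min and 6.87 ± 0.14 at 0 min in KO, and 6.38 ± 0.12 at 60 min and 6.73 ± 0.12 at 0 min in WT (SD, n = 3 at 60 min and 4 at 0 min). At 120 min it had 7.14, 7.31 and 7.06 in KO and 7.24, 7.38 and 7.40 in WT, higher than at 0 min by 0.30 ± 0.09 in KO and 0.61 ± 0.09 in WT (limma adjusted p = 0.022 and 3.4e-05). The fall at 60 min was lost in 3 of 7 fits with 1 array left out in KO, and in 4 of 7 in WT. The limma adjusted p was up to 0.154 in KO without replicate C of 60 min. In WT it was up to 0.143 without replicate A of 60 min. The WT fall was also lost with arrays scaled to the median of all probes (limma adjusted p = 0.171). Slc25a38 fell by 0.47 in KO and by 0.32 in WT. Slc25a36, the other member with the cyclic AMP response element, was called higher at 60 min in KO by 0.31 ± 0.09 (limma adjusted p = 0.0475), and this was lost without any 1 of 6 arrays, with a limma adjusted p of up to 0.169 without KO replicate A of 0 min, and under 6 of 9 other settings.

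Genes of the ATF4 response were higher at 60 min in 4 of 18 cases in KO and 5 of 18 in WT. Chac1, a glutathione-degrading enzyme, rose by 0.65 ± 0.11 in KO and 2.16 ± 0.11 in WT, and Ddit3 by 0.78 ± 0.09 in KO and 0.63 ± 0.09 in WT. Of the 33 members of the amino acid class, 0 were called at 60 min in KO by limma, and 1 was called higher and 1 lower in WT. The WT calls were Slc1a3, the glutamate transporter GLAST, and Slc1a4. Both were lost with single arrays left out, Slc1a3 with a limma adjusted p of up to 0.144 without WT replicate A of 60 min, and Slc1a4 of up to 0.0883 without replicate C.

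At 120 min, 13 members were called higher than at 0 min and 16 lower in KO (6.14% and 9.03% of all genes), and 4 higher and 1 lower in WT (2.04% and 1.98%). Arrays scaled to the median of all probes gave 4 higher and 59 lower in KO, a scaling that moved the median of all genes to -0.209 in that comparison. The 4 members called in both genotypes had the same direction. They were Slc30a1, Slc20a1, Slc41a2 of a magnesium family and, lower in both, Slc39a13. Slc20a1 was higher by 0.49 ± 0.12 in KO and 0.48 ± 0.12 in WT. These calls were lost without KO replicate C of 120 min (limma adjusted p = 0.0544) and without WT replicate A of 120 min (limma adjusted p = 0.114). With 1 array left out, the KO call was lost in 1 of 7 fits and the WT call in 4 of 7. Both calls of Slc20a1 were also lost with arrays scaled to the median of all probes (limma adjusted p = 0.396 in KO and 0.052 in WT). Of the other shared calls in WT, Slc41a2 was lost without WT replicate C of 120 min (limma adjusted p = 0.0822). Slc39a13 was lost in WT without WT replicate A of 120 min (limma adjusted p = 0.0714) and with arrays scaled to the median of all probes (limma adjusted p = 0.168). Of the amino acid class, 1 was called higher and 6 lower in KO. Slc38a2, the sodium-coupled carrier of small neutral amino acids, fell by 0.53 in KO, to 9.83, 9.86 and 9.96 at 120 min against 10.36, 10.42, 10.42 and 10.48 at 0 min.

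At 240 min, 23 members were called higher and 18 lower in KO (10.2% and 11.1% of all genes), and 15 higher and 19 lower in WT (7.66% and 8.33%). Of 19 members called in both genotypes, 17 had the same direction. Slc20a2 had 9.999, 9.95 and 10.14 at 240 min and 9.55, 9.53, 9.32 and 9.45 at 0 min in KO. Its WT arrays had 10.49, 10.46 and 10.55 at 240 min and 9.89, 9.81, 9.76 and 9.88 at 0 min. The rise was 0.57 ± 0.09 in KO and 0.67 ± 0.09 in WT (limma adjusted p = 1.91e-05 and 2.16e-06). Slc20a1 was called higher at 240 min in KO, by 0.62 ± 0.12, and differed by 0.08 ± 0.12 in WT, which was not called. The KO response minus the WT response was 0.55 ± 0.17 and was not called (limma adjusted p = 0.051).

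Slc2a6 and Slc1a4 fell in both genotypes. Slc2a6 fell by 0.56 in KO, to 8.66, 8.72 and 8.70, and by 0.56 in WT, to 7.80, 7.79 and 7.71. Slc1a4, whose promoter holds a composite motif starting 4 bases before the gene's start, had 6.97, 7.10 and 7.33 at 240 min in KO and 7.68, 7.57 and 7.51 in WT. It fell by 0.56 in KO and by 0.79 in WT (limma adjusted p = 2.52e-05 and 1.01e-07). The glycine carrier Slc6a9 was also lower at 240 min in both, by -0.39 ± 0.09 in KO and -0.53 ± 0.09 in WT. The mitochondrial iron carrier Slc25a28 was higher in both, by 0.40 ± 0.08 in KO and 0.62 ± 0.08 in WT. The vitamin carrier Slc5a6 was higher by 0.36 ± 0.09 in KO and 0.49 ± 0.09 in WT. Slc16a13 of the monocarboxylate family was higher by 0.60 ± 0.14 in KO and 0.57 ± 0.14 in WT, where the call was lost without WT replicate A of 240 min (limma adjusted p = 0.0525).

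**Figure D4:**
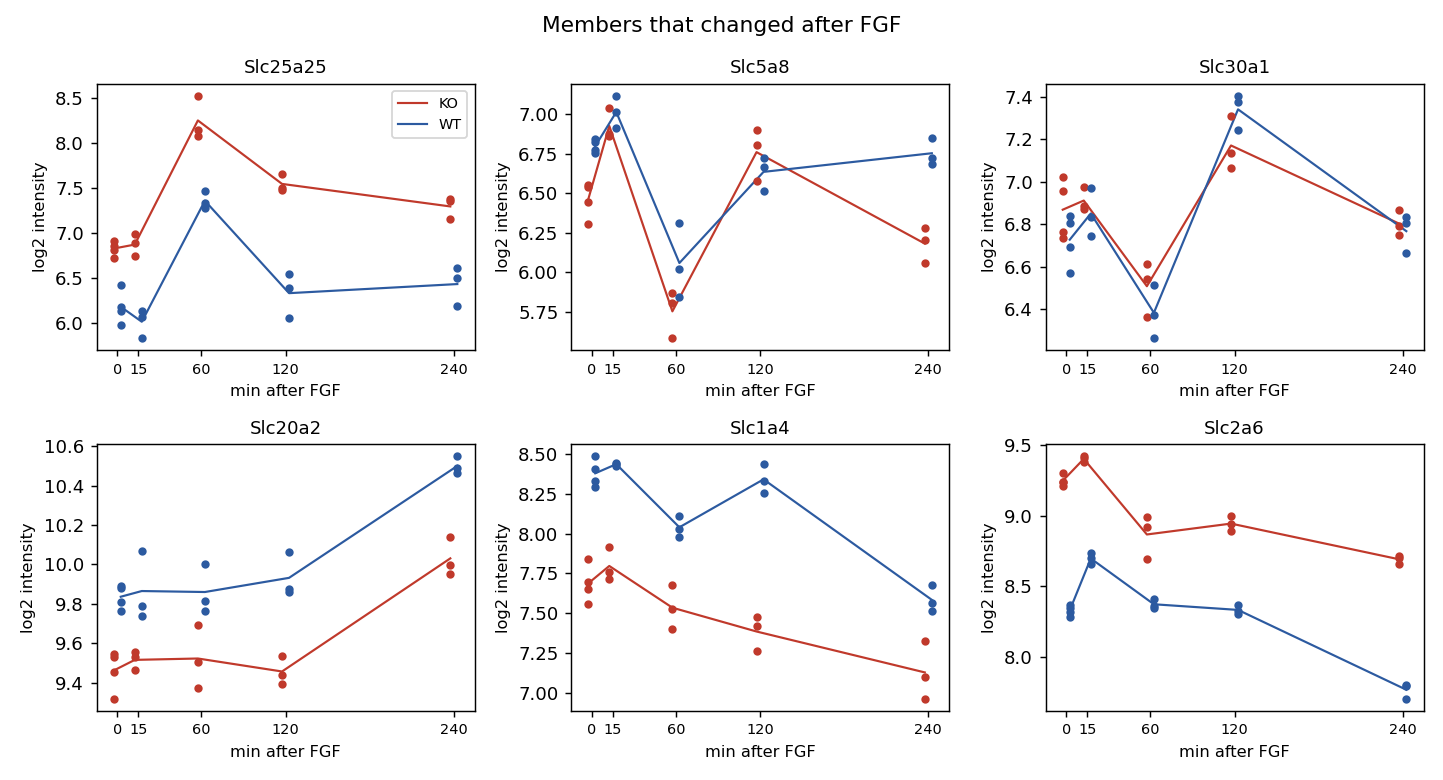
Log2 intensity by minutes after FGF for 6 members, KO and WT in the colours of the legend, with each array as a point (4 at 0 min, 3 at later times) and lines through the means. Slc25a25 peaked at 60 min at a mean of 8.25 in KO and 7.36 in WT, and Slc5a8 was lowest at 60 min in both.

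Of the 33 members of the amino acid class, 3 were called higher and 4 lower at 240 min in KO, and 0 higher and 6 lower in WT by limma. Slc7a11 had 5.55, 5.44 and 5.37 in KO at 240 min and 4.67, 4.47, 4.94 and 4.66 at 0 min. It was higher by 0.77 ± 0.18 in KO (limma adjusted p = 0.00199). Its promoter, printed above, holds the composite motif 2 times. WT arrays had 5.28, 5.19 and 5.38 at 240 min and 4.74, 5.42, 4.49 and 4.63 at 0 min, a difference of 0.46 ± 0.18 that was not called (limma adjusted p = 0.0742). The responses of Slc7a11 differed by 0.31 ± 0.25, which was not called (limma adjusted p = 0.509). Slc22a23 was higher in KO by 0.78 ± 0.14. Slc46a3 was detected on 0 of 3 KO arrays at 240 min and was at least 1.49-fold lower there than at 0 min. In WT, Slc40a1, the iron exporter ferroportin, was detected on 0 of 3 arrays at 240 min and was at least 1.31-fold lower than at 0 min. Slc24a3, a potassium-dependent exchanger of sodium and calcium, fell by 0.70 in WT and by 0.26 in KO.

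The response itself was compared between genotypes, as the KO response minus the WT response. At 60 min, 0 members were called with a higher response in KO and 2 with a lower one by limma (0.358% and 0.349% of all genes). At 120 min, 1 and 1 were called (1% and 0.862%), and at 240 min 5 and 3 (4.32% and 3.54%). An F-test over the 4 later times called 12 members, against 9.21% of all genes.

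Slc66a2 and Slc25a45 had a higher response in KO than in WT at 240 min. Slc66a2 had 9.53, 9.54 and 9.60 at 240 min and 8.90, 9.05, 8.96 and 8.94 at 0 min in KO. Arrays of WT gave 9.02, 8.87 and 8.94 at 240 min and 9.18, 9.20, 9.24 and 9.12 at 0 min. It was called higher at 240 min in KO (0.59 ± 0.08) and lower in WT (-0.24 ± 0.08), and the responses differed by 0.83 ± 0.11 (limma adjusted p = 6.17e-06). Slc25a45 of the mitochondrial family had 6.22, 5.89 and 5.72 at 240 min and 5.78, 6.01, 5.73 and 6.03 at 0 min in KO, with overlap. Among WT arrays it had 5.45, 4.999 and 4.81 at 240 min and 6.10, 6.01, 5.90 and 5.98 at 0 min, and it fell by 0.91. The responses differed by 0.97 ± 0.20 (limma adjusted p = 0.00258).

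Slc1a3 and Slc19a2 had a lower response in KO. Slc1a3 had 5.69, 6.11 and 5.45 at 240 min and 7.25, 7.15, 6.82 and 7.17 at 0 min in KO. On WT arrays it had 6.74, 6.35 and 6.31 at 240 min and 6.95, 7.11, 6.90 and 7.003 at 0 min. It fell by 1.35 in KO and by 0.52 in WT, and the responses differed by -0.82 ± 0.18 (limma adjusted p = 0.00316). Slc19a2 had 10.25, 10.23 and 10.33 in KO at 240 min and was lower than at 0 min by -0.21 ± 0.08. The WT arrays of Slc19a2 had 10.14, 10.15 and 10.21 at 240 min and were higher than at 0 min by 0.49 ± 0.08. Its responses differed by -0.70 ± 0.11 at 240 min and by -0.51 ± 0.11 at 60 min (limma adjusted p = 6.72e-05 and 0.0158). The call at 60 min was lost in 2 of 14 fits with 1 array left out. The limma adjusted p was up to 0.0674 without KO replicate B of 60 min.

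**Figure D5:**
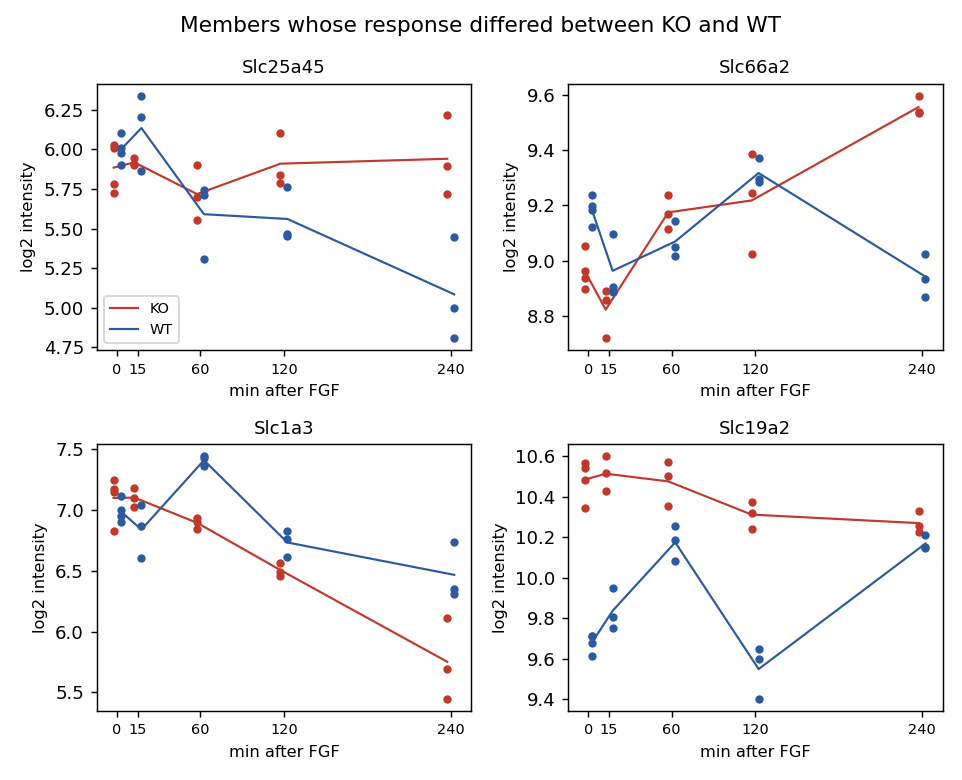
Log2 intensity by minutes after FGF for 4 members whose 240 min response differed between KO and WT, with each array as a point and lines through the means. At 240 min, Slc66a2 averaged 9.55 in KO and 8.94 in WT, Slc25a45 5.94 and 5.08, Slc1a3 5.75 and 6.47, and Slc19a2 10.27 and 10.17.

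Slc2a6 had a lower response in KO at 60 min, by -0.42 ± 0.09 (limma adjusted p = 0.0152). It fell by 0.38 in KO, while WT averaged 8.37 ± 0.04 at 60 min and 8.33 ± 0.04 at 0 min (SD, n = 3 and 4). The call was lost in 2 of 14 fits with 1 array left out, with a limma adjusted p of up to 0.0798 without KO replicate C of 60 min. The other calls at 240 min were Slc24a3, Slc16a10, Slc15a4, a lysosomal carrier of peptides and histidine, and Slc31a2 of the copper family. Slc24a3 was picked out after its value was seen (0.45 ± 0.12, limma adjusted p = 0.0224). At 120 min the calls were Slc25a33 (0.57 ± 0.15) and Slc25a24, a calcium-gated carrier like Slc25a25 (-0.45 ± 0.12). With 1 array left out, Slc25a33 was lost in 10 of 14 fits and Slc25a24 in 8 of 14. The highest limma adjusted p of these fits, 0.137 and 0.148, came without KO replicate A of 120 min. Slc25a33 was also lost under 4 of 9 other settings and Slc25a24 under 1 of 9. Slc16a10 was lost in 11 of 14 fits and under 5 of 9 other settings. Its limma adjusted p rose to 0.13 without KO replicate C of 240 min. Without WT replicate B of 240 min, Slc31a2 and Slc15a4 were lost (limma adjusted p = 0.14 and 0.0563). Slc15a4 was also lost with the mean of its probes and with arrays scaled to the median of all probes (limma adjusted p = 0.683 and 0.245). Slc31a2 was lost in 10 of 14 fits with 1 array left out and under 4 of 9 other settings. All later times of a genotype are set against its same 0 min arrays.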

How the data were processed

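RNA of 32 cultures was hybridised, with a biotin label, to an Illumina mouse bead array. Deposited intensity values are on a linear scale and background-subtracted (negative values occur), without normalization across arrays. The submitters' processing notes name GenomeStudio 1.9.0. Beside each stands a deposited fraction, per the file headers a detection value, which rises with intensity and was taken as 1 minus the detection p. The authors' series matrix gives another deposited intensity with equal quantiles in every column (medians 10.1 to 10.2), used only as an alternative. The table also holds 192 columns of other per-sample values, left unused. Neither slide nor scan date is known, so no batch could be set. The number of arrays limits the precision.

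Probes were named by the platform annotation: 23978 have 1 symbol, 1719 have none, and 23962 matched RefSeq by gene ID. The array's build is not known, so coordinates are printed only for promoters from the RefSeq table (GRCm38.p6). In R 4.3.3, limma 3.58.1 corrected intensities with neqc (normexp by detection p, offset 16, log2, quantile). Of 25697 probes, 14716 had a detection p under 0.05 on at least 3 arrays, and the brightest of a gene stood for it (10903 genes). A single lmFit and eBayes model held the 10 group means (residual degrees of freedom 22, prior 5.284), and p-values were adjusted over all genes. Where no array of a group detected a probe, the fold is a bound. It sets the brighter group's mean against the dim group's mean of the probe's value or, where that is lower, the array's lowest detected signal. In simulated data of 10903 genes, 67, 67 and 66 were changed by 0.5, 1 and 2 on the log2 scale. In the data, 45.8% of genes were called for KO against WT at 0 min, far more than were changed here. The shares below thus describe the simulation and not the recovery in that comparison. Recovered shares for KO against WT (0 min) were 67.2%, 98.5% and 100%. For WT responses (60 min) they were 62.7%, 92.5% and 100%, for KO responses (240 min) 59.7%, 100% and 100%, and for the KO minus WT difference (240 min) 32.8%, 79.1% and 100%.

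Members, lists, transport classes and tests were chosen with earlier results of these data known. Named members were, among called ones, the 8 largest rises and falls at 0 min, the 5 and 5 largest of each response (3 and 3 at 15 min), the 4 and 4 largest differences of responses and up to 3 of each transport class. Others are named as examples, chosen after their values were seen. Alternatives were median scaling over all or over the kept probes, the authors' matrix, an offset of 50, no detection filter, detection on every array of a group, the mean of a gene's probes, a trend in the prior variance, replicate letter as a block, and each array left out.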

Additional observations from a re-analysis of the deposited data

Results flagged for a closer look

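In groups of 4 arrays at 0 min, 1 array stood apart from the other 3 by Dixon's test in 4 of 146 groups of named members, where chance gives about 1 in 20. Slc22a23 was 5.504 in KO replicate C, against 5.239 to 5.257 on the other KO arrays. Slc25a1 was 8.818 in WT replicate B, against 8.973 to 8.994. Slc29a3 was 8.335 in WT replicate C, against 8.586 to 8.637. Slc2a10 was 5.246 in WT replicate D, against 5.803 to 5.888. These were 4 different members on 4 different arrays.

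For 11 members the KO response minus the WT response was called by limma's test of the difference itself. At 60 min it was -0.505 for Slc19a2 and -0.424 for Slc2a6. At 120 min it was 0.57 for Slc25a33 and -0.454 for Slc25a24. At 240 min it was 0.969 for Slc25a45, 0.834 for Slc66a2, 0.508 for Slc16a10, 0.47 for Slc15a4 and 0.445 for Slc24a3. It was -0.822 for Slc1a3, -0.739 for Slc31a2 and -0.704 for Slc19a2.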

How the results depend on the processing

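Under all alternatives run, 79 results for named members kept their direction and call, and 36 lost the call under 1 or more. Of 1958 values of named results, 1770 kept the call, 188 lost it and 0 reversed. With arrays scaled to the median of all probes, 3 members were called in WT at 120 min, 1 and 63 in KO at 15 and 120 min, 7, 44 and 5 in the difference of responses at 60, 120 and 240 min, and 33 in the F-test. That scaling set the median of all genes to -0.209 for KO at 120 min, and to -0.169 and -0.269 for the differences at 60 and 120 min. An offset of 50 gave 8 for WT at 120 min, 4 for KO at 15 min, 4 for the difference at 120 min and 19 for the F-test. Detection on every array of a group gave 8 for WT at 120 min, and no detection filter gave 1 for the difference at 120 min. Higher and lower calls were 4 and 2 for WT at 60 min, 1 and 8 for KO at 60 min and 14 and 22 for KO at 240 min when scaled to the median of all probes. Scaled to the median of the kept probes, they were 26 and 16 for KO at 120 min and 40 and 41 for KO against WT at 240 min. These counts of members stand without shares of all genes under the same settings.

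With 1 array left out, counts ranged from 1 to 3 for WT at 15 min, 4 to 9 at 60 min and 3 to 8 at 120 min, 0 to 2 for KO at 15 min and 4 to 12 at 60 min, and 1 to 3, 0 to 2 and 5 to 12 for the difference at 60, 120 and 240 min. The lowest counts came without WT replicate B of 60 min, WT replicate A of 120 min and KO replicate C of 60 min in those responses, and the highest for WT at 120 min without WT replicate D of 0 min. The cause was not tested. The replicate letters do not pair the samples: same-letter arrays' deviations had a median correlation of -0.0078 (-0.247 to 0.266, 136 pairs), and 2 of 30 arrays correlated best with their own letter. With the replicate block, 0 members were called for KO at 15 min, 6 for KO at 60 min and 0 for the difference at 120 min, and other counts stayed within 1.5 times of those without it. A member not detected above background in a group has only a bound there. Its fitted difference, such as -2.34 for Slc14a1 at 0 min, carries that limit.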
